A study of Mus musculus with 6 samples.

Results

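The Taar7 and Taar8 genes are the expanded branches of the trace amine-associated receptor (Taar) family of the mouse. All 8 protein-coding members, Taar7a, Taar7b, Taar7d, Taar7e, Taar7f, Taar8a, Taar8b and Taar8c, were found by symbol among the 53686 genes of the count table. The libraries came from poly-A RNA of dissected olfactory epithelium of C57BL/6J mice. Of the 6 libraries, 3 were wild-type and 3, called transgenic here, were hemizygous for 5x21-OR1A1, a transgene that carries an odorant receptor gene, and the series title asks about receptor choice when such a transgene is highly represented. Neither the age and sex of the mice, nor what drives the transgene, nor how many animals gave a library, is stated in the sources used here. The libraries are labelled as replicates, so a p-value weighs the genotype difference only against their own spread, which may be in part technical.

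Taar genes encode receptors for volatile amines. As with odorant receptors, an olfactory sensory neuron usually expresses a single Taar gene, mostly in the dorsal part of the epithelium, and signals through the olfactory G protein, adenylyl cyclase and a cyclic nucleotide-gated channel. Taar1 is the family member that is not an olfactory receptor. The olfactory members are known to depend on enhancers inside their own gene cluster, and the branch that holds Taar7 and Taar8 is known for receptors of tertiary amines. The comparison of genotypes therefore shows, for a receptor family outside the odorant receptors, how much RNA of each gene was present when the transgene was.

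In GRCm38 (GENCODE M21) the 8 genes lie on chromosome 10 between 23992405 and 24101912, a span of 109508 bases that also holds the pseudogene Taar7c-ps and the gene models Gm15136 and Gm6884. Each gene has 1 annotated exon, and these models hold coding sequence only, of 1077 bases in Taar7 genes and 1035 bases in Taar8 genes. None overlaps another annotated gene. Taar7a (23992405 to 23993481), Taar8b (24091260 to 24092294) and Taar8c (24100878 to 24101912) are on the minus strand. Taar7b (23999939 to 24001015), Taar7d (24027222 to 24028298), Taar7e (24037614 to 24038690), Taar7f (24049510 to 24050586) and Taar8a (24076500 to 24077534) are on the plus strand.

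The coding sequences were close copies within each branch. Pairs of Taar7 genes were identical at 91.7% to 95.4% of aligned positions, pairs of Taar8 genes at 96.6% to 98.1%, and pairs across the branches at 67.7% to 69.1%. All 5 Taar7 genes had the same letter at 937 of 1077 positions. The 60-base stretch with the most differences was the start of the coding sequence, where 31 positions varied. It is shown because it sets Taar7a apart by sequence, and capitals mark the positions that are not the same in all 5 genes. The stretches lie at chr10:23993422-23993481 (minus strand), chr10:23999939-23999998, chr10:24027222-24027281, chr10:24037614-24037673 and chr10:24049510-24049569 (plus strand), in the order printed.
Taar7a: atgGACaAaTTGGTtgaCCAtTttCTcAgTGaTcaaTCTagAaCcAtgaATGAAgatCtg
Taar7b: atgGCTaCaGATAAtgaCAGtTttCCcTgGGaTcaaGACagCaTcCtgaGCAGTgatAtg
Taar7d: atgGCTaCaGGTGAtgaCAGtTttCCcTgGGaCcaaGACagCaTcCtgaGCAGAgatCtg
Taar7e: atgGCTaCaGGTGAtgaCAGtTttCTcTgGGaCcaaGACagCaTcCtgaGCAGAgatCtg
Taar7f: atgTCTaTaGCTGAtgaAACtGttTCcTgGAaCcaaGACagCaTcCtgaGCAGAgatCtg

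Taar7a differed alone from the other Taar7 genes at 29 coding positions, 18 of them in these first 60 bases. The corresponding numbers were 18 and 3 for Taar7b, 15 and 0 for Taar7d, 11 and 0 for Taar7e and 17 and 5 for Taar7f.

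The Taar8 genes have the same first 100 bases, shown once because a read from it cannot be placed on 1 of the 3 genes. In Taar8a it lies at chr10:24076500-24076599 on the plus strand.
Taar8a, Taar8b and Taar8c: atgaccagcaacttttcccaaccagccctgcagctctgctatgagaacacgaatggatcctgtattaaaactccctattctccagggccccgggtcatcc

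They differed most in a 60-base stretch near the end of the coding sequence, positions 964 to 1023, where 11 positions varied. It is shown as a place where reads can be told apart, with those positions in capitals. The stretches are chr10:24077463-24077522 (plus strand), chr10:24091272-24091331 and chr10:24100890-24100949 (minus strand).
Taar8a: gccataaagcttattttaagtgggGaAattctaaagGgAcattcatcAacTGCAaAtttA
Taar8b: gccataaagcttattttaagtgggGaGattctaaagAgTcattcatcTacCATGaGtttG
Taar8c: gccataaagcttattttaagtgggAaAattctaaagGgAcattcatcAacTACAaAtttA

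**Figure D1:**
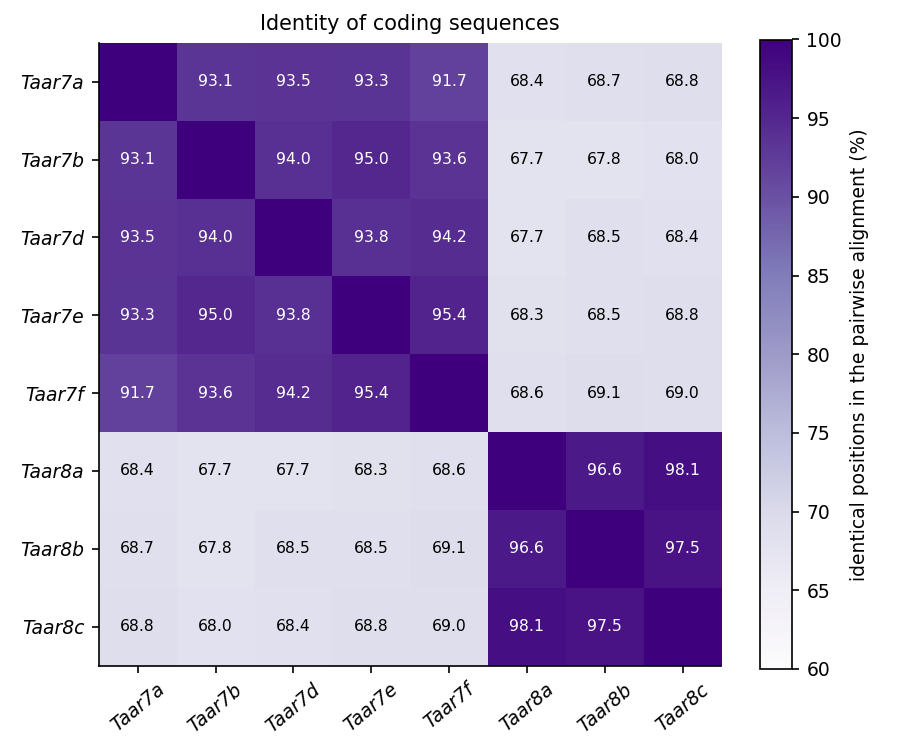
Identity of the 8 coding sequences in pairwise alignments, in percent of aligned positions (darker is more alike; colour scale starts at 60%). The Taar7 block runs from 91.7% to 95.4% and the Taar8 block from 96.6% to 98.1%, while pairs across the blocks stay at 67.7% to 69.1%.

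Reads of 100 bases were sequenced, so each coding sequence was searched in windows of that length against all annotated transcripts on both strands. Windows with an exact copy in another gene made up 9.61% of Taar7a, 10.9% of Taar7d, 17.1% of Taar7b, 32.1% of Taar7f and 33.2% of Taar7e. In the Taar8 genes they made up 22.9% of Taar8b, 35.7% of Taar8a and 52.6% of Taar8c. All exact copies of Taar7 windows were in other Taar7 genes or Taar7c-ps, and all those of Taar8 windows were in other Taar8 genes. Allowing 2 mismatches, between 44.2% (Taar7d) and 83.0% (Taar8c) of windows had a match in another Taar gene. How reads with several matches were counted is not given in the sources used here, so values of single members are uncertain, and a read may have been dropped or placed on a neighbour.

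RefSeq (GRCm38.p6) gave windows around the annotated start for 6 of the 8 genes, Taar7a, Taar7b, Taar7d, Taar7e, Taar7f and Taar8b. In each of them the annotated start was the start codon, so the 250 bases before it are sequence before the coding start and need not be the promoter. These stretches were less alike than the coding sequences. Taar7d, Taar7e and Taar7f were identical to each other at 73.7% to 83.4% of aligned positions, and Taar7b to those 3 at 53.6% to 57.2%. Taar7a was at 46.8% to 51.6% against the other Taar7 genes, while pairs of Taar8b with a Taar7 gene were at 46.1% to 50.4%. A run of 14 letters, AAATAGATGAAGCA, was shared by Taar7b, Taar7d, Taar7e and Taar7f and was not found in the windows of Taar7a or Taar8b on either strand. The 60 bases that end in it are shown because they set these 4 genes apart from Taar7a, with the run in capitals. They lie on the plus strand at chr10:23999698-23999757, chr10:24027018-24027077, chr10:24037412-24037471 and chr10:24049307-24049366.
Taar7b: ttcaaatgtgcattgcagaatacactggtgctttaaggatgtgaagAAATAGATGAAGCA
Taar7d: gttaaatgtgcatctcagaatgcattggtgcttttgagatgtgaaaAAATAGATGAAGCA
Taar7e: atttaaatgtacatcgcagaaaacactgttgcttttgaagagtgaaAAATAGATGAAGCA
Taar7f: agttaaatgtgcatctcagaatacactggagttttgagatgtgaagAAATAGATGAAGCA

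Of 32851 windows of 250 bases in the RefSeq table, 4 held this run on either strand, 0.0122% of all. These 4 are the windows of the genes from which the run was taken. A longer run, TCTGAGGATCTTTGGA, began 25 bases before the start codon in the same 4 genes and was likewise in their 4 windows only. Of 4 motifs searched on both strands, the homeodomain core TAATTA was in the window of Taar8b alone among the 6 and in 4.84% of all windows. TATAAA was in 4 of the 6 (Taar7a, Taar7b, Taar7f and Taar8b) and in 12.4% of all windows. Neither CCCNNGGG, the letters bound by Ebf factors, nor the octamer ATTTGCAT was in any of the 6, against 11.8% and 1.6% of all windows. A match or its lack describes the letters of these windows and nothing about binding.

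Library totals ran from 27506217 to 35804712 counts. Levels are given as CPM, counts scaled to library totals that were corrected by TMM, a factor that evens out library composition. Over all genes, edgeR's quasi-likelihood test called 423 of 19267 tested genes lower and 100 higher in transgenic tissue at an adjusted p under 0.05, or 2.71% in either direction. The 8 genes were thin in every library. They summed to 460, 680 and 411 counts in wild-type libraries, and the transgenic sums were 215, 220 and 190. Of the 8, 6 passed the filter on low counts, each above the filter's level of 0.327 CPM in all 6 libraries, and Taar8a and Taar8c did not pass.

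Both genes called lower were Taar7 genes, which made up 5 of the 6 tested members. Of the 6 tested members, Taar7a and Taar7d fell, 0 rose and 4 did not pass, where 2.20% of all tested genes were called lower. All 6 fitted log2 fold changes were below 0, except that Taar7b turned to 0.075 with counts scaled to mature neuron markers, and 47.1% of all tested genes were below 0. Their median was -0.89, beside 0.02 over all tested genes. In the sets most like them, 2 of 6 other olfactory Taar genes and 257 of 908 tested odorant receptor genes were called lower.

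Taar7a had 96, 146 and 103 counts in the wild-type libraries, or 3.05, 4.01 and 3.56 CPM. In the transgenic libraries it had 18, 21 and 20 counts, or 0.491, 0.721 and 0.737 CPM. Every wild-type library was thus at least at 3.05 CPM and every transgenic one under 1 CPM, with no overlap. The mean went from 3.54 ± 0.481 to 0.649 ± 0.138 CPM (SD, n = 3 each), a log2 fold change of -2.45 (SE 0.24, edgeR adjusted p = 0.00341), or 5.48-fold lower. Among the fitted values of 19267 tested genes it held place 44 from the lowest. The call held in each of the 15 alternative fits, in which the value ran from -2.56 to -1.77.

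Taar7d, the third coding member along the cluster, was at 2.57, 2.17 and 2.94 CPM in wild-type and at 0.491, 0.789 and 0.884 CPM in transgenic libraries. The groups did not overlap here either. The mean went from 2.56 ± 0.386 to 0.721 ± 0.205 CPM (SD, n = 3 each), a log2 fold change of -1.84 (SE 0.28, edgeR adjusted p = 0.0157), or 3.57-fold lower. This call was lost without transgenic library 1 (-1.61, edgeR adjusted p = 0.0645), 2 (-1.91, 0.0700) or 3 (-2.01, 0.0555), and was kept without any 1 wild-type library.

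Taar7f was the most abundant member in both groups. It was at 3.72, 4.53 and 3.22 CPM in wild-type and at 1.55, 2.33 and 2.14 CPM in transgenic libraries. Its groups stood apart, yet the log2 fold change of -0.94 (SE 0.22) missed the threshold (edgeR adjusted p = 0.0803). DESeq2 called it lower (DESeq2 adjusted p = 0.0158), with the range of adjusted p over all 15 alternatives from 0.0158 to 0.328.

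Taar7b, whose level was the lowest of the Taar7 genes in wild-type tissue, was at 1.14, 1.24 and 1.70 CPM there and at 0.790, 1.13 and 0.773 CPM in transgenic libraries. The groups stood apart by a narrow margin, since the highest transgenic library was just under the lowest wild-type one. Its log2 fold change was -0.59 (SE 0.28, edgeR adjusted p = 0.332).

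Taar7e was at 2.26, 3.76 and 1.49 CPM in wild-type and at 1.53, 0.995 and 1.69 CPM in transgenic libraries. The groups overlapped, as wild-type library 3 lay below transgenic libraries 1 and 3. The log2 fold change was -0.84 (SE 0.37, edgeR adjusted p = 0.298), and -0.41 (0.590) without wild-type library 2, the highest. Its coefficient of variation among wild-type libraries was 46.3%, where counting error alone gives 10.9%, while that of Taar7a was 13.6% against 9.33%.

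Taar8b carried most counts of its branch. It was at 1.46, 2.22 and 1.18 CPM in wild-type and at 0.845, 1.34 and 0.552 CPM in transgenic libraries. Transgenic library 2 lay above wild-type library 3, so the groups overlapped. The log2 fold change was -0.83 (SE 0.38, edgeR adjusted p = 0.315), and -0.53 (0.562) without wild-type library 2, the highest.

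Taar8a and Taar8c were near the limit of these libraries. Taar8a had 6, 14 and 2 wild-type counts and 3, 2 and 3 transgenic ones. Taar8c had 7, 13 and 2 and then 3, 5 and 3. Both had the most counts in wild-type library 2, and wild-type library 3 had no more counts than any transgenic one. The log2 ratio of summed counts was -1.40 for Taar8a (95% exact binomial interval -2.78 to -0.18) and -0.94 for Taar8c (-2.13 to 0.16), intervals that cover counting error only and no spread between libraries. Fitted without the filter, their edgeR adjusted p was 0.514 and 0.700, so no difference was detectable at this depth.

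Groups that did not overlap, transgenic below wild-type, were found for 4 of the 6 tested members, Taar7a, Taar7b, Taar7d and Taar7f, where 12.5% of all tested genes had this order. For each of the 4 the two-sided exact permutation test gave p = 0.1, the smallest that 3 against 3 libraries allow, and an adjusted p of 0.2 over the 8 members.

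**Figure D2:**
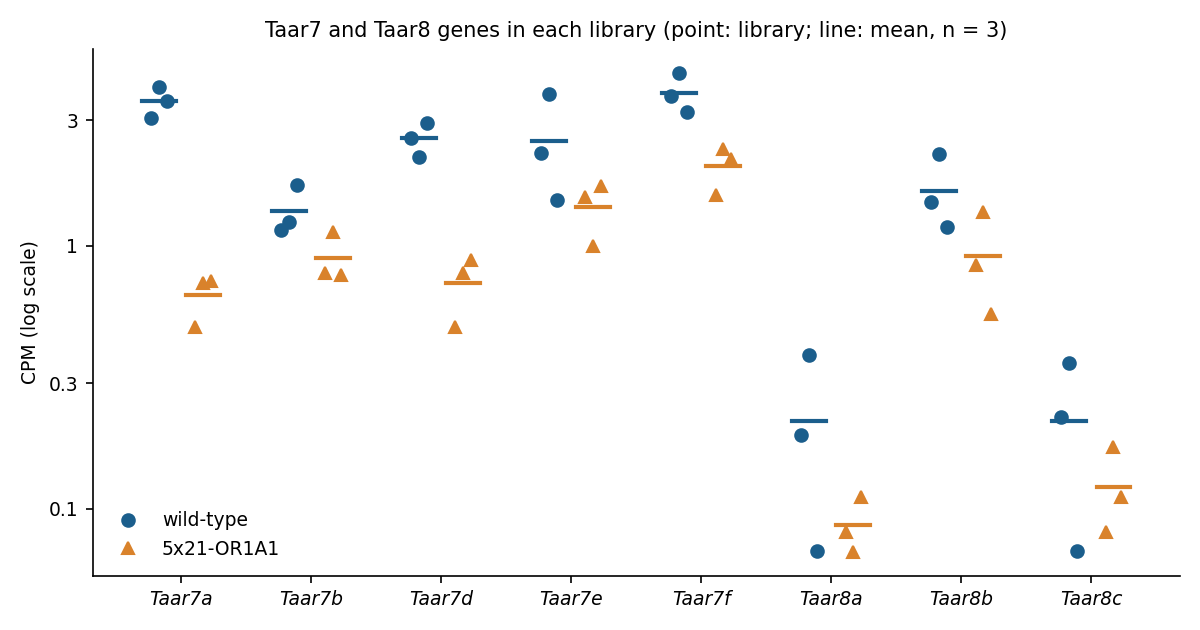
CPM of the 8 genes in each library (log axis). Circles are the 3 wild-type and triangles the 3 5x21-OR1A1 libraries, and lines are group means. Taar7a and Taar7d show the widest gaps between groups, and the points of Taar7e, Taar8a, Taar8b and Taar8c overlap.

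The order of the genes by level differed between the groups. Per kilobase of coding sequence, the wild-type means were 3.55 ± 0.616 CPM per kb for Taar7f, 3.29 ± 0.446 for Taar7a, 2.38 ± 0.358 for Taar7d, 2.32 ± 1.07 for Taar7e, 1.57 ± 0.524 for Taar8b and 1.26 ± 0.274 for Taar7b (SD, n = 3). Taar8c and Taar8a followed at 0.209 ± 0.139 and 0.208 ± 0.154 CPM per kb. Among neighbours in this order, only Taar7a and Taar7d, and Taar7b and Taar8c, had library ranges that did not overlap. In transgenic tissue Taar7f was again first, at 1.86 ± 0.376 CPM per kb, followed by Taar7e at 1.31 ± 0.339, Taar8b at 0.881 ± 0.384, Taar7b at 0.834 ± 0.188, Taar7d at 0.670 ± 0.191 and Taar7a at 0.603 ± 0.128. Taar7a had thus gone from place 2 to place 6 of 8. There only the ranges of Taar7a and Taar8c were apart among neighbours. With levels set per window without an exact copy elsewhere in place of per kilobase, Taar7e and Taar7d changed places in the wild-type order and no other gene moved.

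The make-up of the summed counts showed the same shift. Taar7a gave 20.9%, 21.5% and 25.1% of the counts of the 8 genes in wild-type libraries against 8.37%, 9.55% and 10.5% in transgenic ones. Taar7f gave 25.4%, 24.3% and 22.6% and then 26.5%, 30.9% and 30.5%. Both shares stood apart between groups, the first lower and the second higher in transgenic tissue. Shares within a library are bound to each other, so a lower share of 1 gene raises those of others. The level of Taar7f itself was not higher in transgenic tissue (log2 fold change -0.94). These shares restate the counts given above and are no separate result. Shares of the other 6 genes overlapped between groups, among them Taar7d, at 17.6%, 11.6% and 20.7% and then 8.37%, 10.5% and 12.6%.

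**Figure D3:**
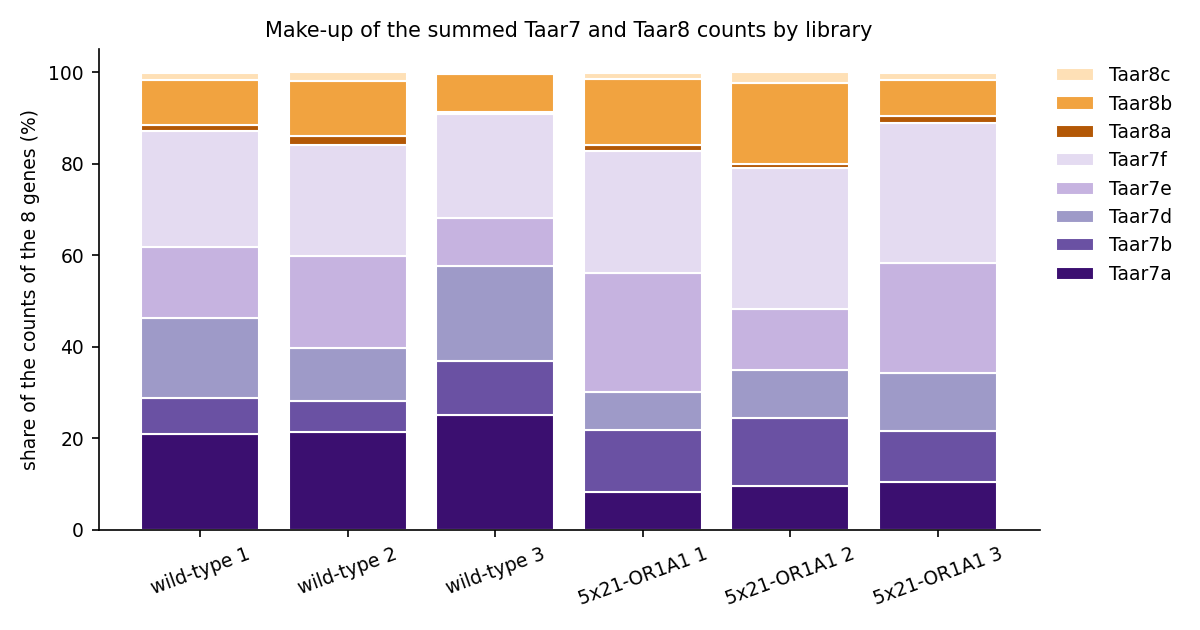
Share of each gene in the counts of the 8 genes, in percent, for each library (stacked bars, from 0 to 100%). The dark band of Taar7a at the base is 20.9% to 25.1% high in wild-type and 8.37% to 10.5% in 5x21-OR1A1 libraries.

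The log2 ratio of counts of 2 genes within a library was compared between groups for the 15 pairs of tested members. The ratio of Taar7a to Taar7f was -0.29, -0.18 and 0.15 in wild-type libraries against -1.66, -1.70 and -1.54 in transgenic ones, a difference of -1.53 (SE 0.14). Taar7a was lower in transgenic tissue relative to each of the 5 others, by -0.60 (SE 0.22) against Taar7d and by -1.87 (SE 0.27) against Taar7b, with no overlap of groups. Taar7d was lower relative to Taar7b (the ratio of Taar7b to Taar7d differed by 1.26, SE 0.30) and to Taar7f (-0.93, SE 0.29), also without overlap. These 7 pairs had a two-sided exact permutation p of 0.1, the smallest possible, and an adjusted p of 0.214 over the 15 pairs. No pair could have passed 0.05 with 3 libraries per group, so this test cannot decide whether members changed unequally. All 7 hold Taar7a or Taar7d, so they are not independent of each other or of the fold changes of those genes. How often pairs of other genes stand apart was not tested. The ratio of Taar7f to Taar8b differed by -0.06 (SE 0.39) and that of Taar7e to Taar7f by 0.17 (SE 0.44), within the spread of libraries. Reads shared between close copies may enter these ratios, and their part was not tested.

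By branch, the summed Taar7 counts went from 12.7, 15.7 and 12.9 CPM in wild-type to 4.85, 5.97 and 6.22 CPM in transgenic libraries. The log2 ratio of the means was -1.28 (SE 0.15), and the groups did not overlap. The summed Taar8 counts were at 1.87, 2.97 and 1.32 CPM and then 1.01, 1.58 and 0.773 CPM. Their log2 ratio was -0.87 (SE 0.45), or -0.51 without wild-type library 2, and the groups overlapped. The ratio of Taar7 to Taar8 counts was 6.80, 5.30 and 9.82 in wild-type libraries against 4.81, 3.78 and 8.05 in transgenic ones, overlapping, so that no difference between the branches was resolved.

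Along the cluster, the called genes were not all neighbours. Taar7b, which lies between Taar7a and Taar7d and 6457 bases from Taar7a, had a value of -0.59 with flanks of -2.45 and -1.84. Of the 6 other olfactory Taar genes, Taar2 (-1.73) and Taar3 (-1.43) fell, and Taar9 (-1.45), Taar6 (-1.13), Taar4 (-0.98) and Taar5 (0.20), the receptor of trimethylamine, did not pass. The call of Taar2 was lost in 1 of the 15 alternative fits, without transgenic library 1 (edgeR adjusted p = 0.0541). That of Taar3 was kept in 7 of 15, and was lost with library totals alone, with limma-voom, with the replicate block and without any 1 of wild-type libraries 1 and 2 and the 3 transgenic libraries (adjusted p over the 15 fits 0.00738 to 0.189). The median of the 6 genes was -1.28, or -0.58 with counts scaled to mature neuron markers, where Taar5 was called higher (0.86, edgeR adjusted p = 0.0375). Taar1 had 0 counts in all libraries. Taar7c-ps had 2, 2 and 1 wild-type counts and 0, 1 and 0 transgenic ones. The ratio of the 8 genes' counts to those of the 6 other olfactory Taar genes was 0.772, 0.724 and 0.897 in wild-type libraries against 0.618, 0.746 and 0.802 in transgenic ones, which overlap.

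**Figure D4:**
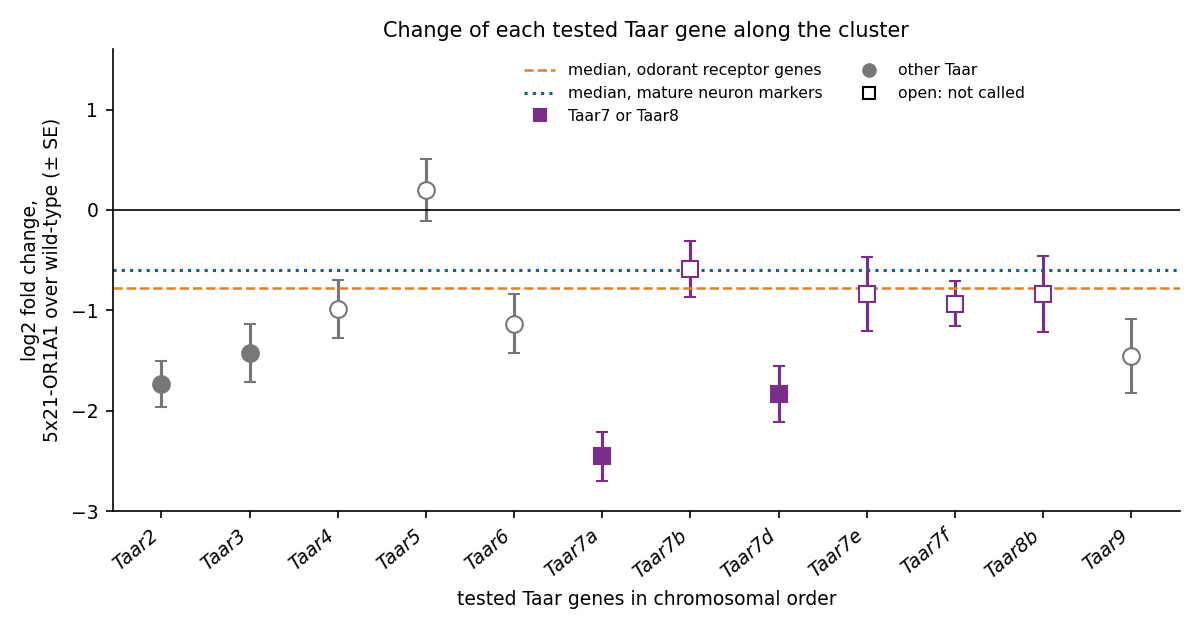
Log2 fold change (± SE) of each tested Taar gene, 5x21-OR1A1 over wild-type, in chromosomal order. Squares are Taar7 and Taar8 genes, circles other Taar genes, and filled symbols passed the edgeR threshold. Taar7a at -2.45 and Taar7d at -1.84 lie below the medians of odorant receptor genes (-0.78, dashed) and mature neuron markers (-0.60, dotted). The other 4 members lie near both medians. Receptor genes of the chromosome 7 class I cluster, not drawn, had a median of -1.68 and a lowest value of -3.69. Taar7a and Taar7d thus lie within the range of that cluster.

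The summed level of mature neuron markers was also lower. Omp, the olfactory marker protein of mature neurons, was at 9695, 12520 and 12340 CPM in wild-type and at 6700, 7005 and 6655 CPM in transgenic libraries (log2 fold change -0.76, SE 0.14, edgeR adjusted p = 0.0305). The groups did not overlap, but its call was kept in 8 of the 15 alternative fits only, and was lost without wild-type library 2 or 3 or any 1 transgenic library. The summed level of 18 mature neuron markers was 20490 to 26510 CPM in wild-type and 14260 to 15500 CPM in transgenic libraries. Of 17 tested markers 5 were called lower, beside 2.20% of all tested genes, and 0 higher, and 1 marker (Carns1) was without a count. Nqo1, an enzyme of dorsal olfactory neurons, was at 515, 691 and 453 CPM and then 251, 242 and 237 CPM (-1.18, edgeR adjusted p = 0.00867), the only gene called of 6 dorsal zone genes. Its call was lost without any 1 transgenic library (edgeR adjusted p = 0.0515 to 0.0568). The other dorsal genes did not pass, with Acsm4 at -0.45, Robo2 at 0.04, Cidea at 0.12, Nrp1 at 0.30 and Msx1 at 0.50, and the median of the 6 was 0.08. The part of these levels in the values of the 8 genes was not tested. In bulk tissue, fewer neurons of a type and less RNA per neuron cannot be told apart. Per 10000 counts of mature neuron markers, the 8 genes had 7.13, 7.04 and 6.02 counts in wild-type libraries against 4.11, 4.87 and 4.91 in transgenic ones. The log2 ratio of the means was -0.54 (SE 0.11), and the groups did not overlap. For the Taar7 genes alone it was -0.60 (SE 0.12), again without overlap, and for the Taar8 genes -0.19 (SE 0.40), with overlap.

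When all counts were scaled to those markers, which moved the median of all tested genes to 0.68, Taar7a (-1.77, edgeR adjusted p = 0.00211) and Taar7d (-1.18, edgeR adjusted p = 0.00966) were still called lower. The other tested members were then at -0.26 (Taar7f), -0.15 (Taar8b), -0.13 (Taar7e) and 0.075 (Taar7b), so the direction of Taar7b turned. Over all genes this scaling called 14435 higher and 267 lower, in place of 100 and 423. Per count of odorant receptor genes the 8 genes were at 0.00386, 0.00360 and 0.00323 in wild-type libraries against 0.00228, 0.00293 and 0.00299 in transgenic ones, which did not overlap. Of 908 tested odorant receptor genes 257 were called lower and 16 higher, with a median of -0.78. Scaled to the markers, 249 passed as lower and 197 as higher, and the median was -0.09.

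Genes of olfactory signal transduction, several of them mature neuron markers too, had values below 0 in 18 of 18 cases, with a median of -0.59. Of these genes 4 fell. Over all tested genes 47.1% were below 0 and 2.20% were called lower. The genes that fell were Gng13, a G protein gamma subunit (-0.81), Omp (-0.76), Ric8b, which acts on the olfactory G protein (-0.735), and Cnga4, a subunit of the cyclic nucleotide-gated channel (-0.68). Each of these 4 calls was lost without wild-type library 2 or 3 or any 1 transgenic library, and with marker scaling. Gng13, Omp and Cnga4 are themselves among the markers, and Omp alone made up 11520 of their 23540 CPM in the wild-type means. Marker scaling therefore cannot tell a change of such genes from that of the markers. With marker scaling the median of the 18 genes was 0.09, and 0 were called lower and 5 higher. Closest to the threshold were Stoml3 (-0.75, edgeR adjusted p = 0.0538) and Reep1 (-0.63, edgeR adjusted p = 0.0581). Of 24 genes tied to receptor choice Ebf4, a transcription factor of olfactory neurons, fell (-0.74), 0 rose, and the median was 0.035. With marker scaling, which called 14435 of all 19267 tested genes higher, 21 of the 24 were called higher and Ebf4 (-0.08) was not called. Its call was also lost without transgenic library 1 (edgeR adjusted p = 0.0751) or 3 (0.0741). Ddit3 (0.40) and Adcy3, the olfactory adenylyl cyclase (-0.60), did not pass.

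Markers of other cells gave the setting. Over all 19267 tested genes, 100 were called higher and 423 lower. Of 12 immature neuron markers 4 were called higher and 1 lower (summed level 1713 to 1937 CPM in wild-type and 2128 to 2297 CPM in transgenic libraries). Of 12 progenitor markers 6 were higher (484 to 560 and 607 to 691 CPM). No gene passed among 7 ventral zone, 8 sustentacular, 7 horizontal basal cell, 9 gland, 7 ciliated cell, 6 microvillous cell, 4 guanylyl cyclase D neuron and 5 vomeronasal genes tested. The summed level of the sustentacular markers, supporting cell genes, also stood apart between groups, at 24820 to 26050 CPM in wild-type and 22980 to 23750 CPM in transgenic libraries. Taken singly, 12.5% of all tested genes stood apart in this direction. Trpc2, the channel that defines vomeronasal neurons, is listed at 0 in all libraries. The vomeronasal list summed to 327 to 445 CPM in wild-type and 385 to 415 CPM in transgenic libraries. Why Trpc2 had no count was not tested, so its 0 does not show that vomeronasal tissue was absent. Of 9 glia and bulb genes 2 were called lower (805 to 965 and 686 to 762 CPM). Marker scaling called 14435 of all 19267 tested genes higher. Among them were 11 immature neuron, 12 progenitor and 5 glia and bulb genes, and 0 genes of these lists were called lower. The part of these cells in the values of the 8 genes was not tested.

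The genes whose pattern over the 6 libraries was most like that of the summed 8 genes were odorant receptors. Likeness was the root mean square difference of centred log2 CPM, among 9805 tested genes of similar level. It was 0.08 for Olfr51, 0.09 for Olfr875, 0.10 for Olfr1056 and Olfr594 and 0.11 for Olfr1042 on the log2 scale, over 6 libraries that all these genes share. Olfr51 was at 3.78, 5.58 and 3.63 CPM in wild-type and at 1.61, 1.96 and 1.84 CPM in transgenic libraries.

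**Figure D5:**
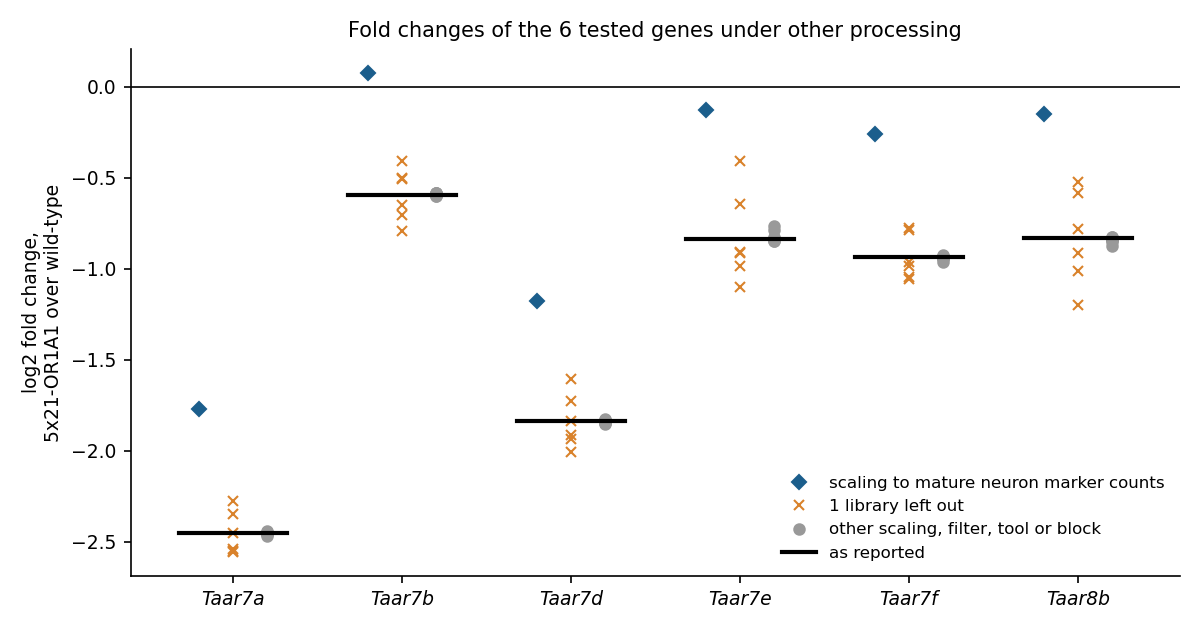
Log2 fold change of the 6 tested genes, 5x21-OR1A1 over wild-type, as reported (black line), with each library left out (crosses), with scaling to mature neuron markers (diamonds) and with the other scalings, filters, tools and the replicate block (grey circles). Taar7a stays between -2.56 and -1.77, and Taar7b reaches 0.075 with marker scaling.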

How the data were processed

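The authors deposited 1 table of whole-number read counts, not normalized, with gene symbols in rows and 1 column per library, matched to samples by the library names in the labels. Per the submitters' processing notes, TopHat2 2.1.1, HTSeq 0.9.1 and GRCm38.p5 were used; libraries were nonstranded and read as single ends of 100 bases, per the labels' protocols. How reads were assigned to genes, and by which annotation, is not given in the sources used here.

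The 53686 symbols were fitted together in edgeR 4.0.16 (R 4.3.3): TMM, the default filter by group (minimum count 10, total 15), a quasi-likelihood test with genotype as its 1 term, and p-values adjusted by Benjamini-Hochberg across 19267 genes, called under 0.05. For an edgeR fold change, the standard error is the log2 fold change over the root of F. For sums and ratios it is that of the difference between group means of the libraries' log2 values. Beside a log2 ratio of means it is thus an approximation. The fit was tested on simulated data, and no error rate from that test is given here. Coding sequences came from GENCODE M21 (GRCm38) and were aligned globally in Biopython 1.88. Exact permutation tests were two-sided. Alternatives were other scalings and filters, DESeq2 1.42.0, limma-voom (limma 3.58.1), a threshold of 0.01, the replicate block and each library left out; the level per unshared window was added after seeing the data. Named genes were the 8 members, the other Taar genes, Omp, Nqo1, called genes of 2 lists with up to 2 next in adjusted p, and the 5 nearest in pattern. Members and lists were chosen with earlier results of these data known.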

Additional observations from a re-analysis of the deposited data

How the results depend on the processing

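Over all genes, 523 calls became 14702 with scaling to mature neuron markers, 1212 with DESeq2 (310 higher, 902 lower) and 154 at an adjusted p under 0.01, and 150 to 626 without 1 library. Leaving out transgenic library 1, 2 or 3 gave 155, 175 or 150 calls and leaving out wild-type library 2 gave 313, with fewer samples fitted. The 2 members called lower were 1 at an adjusted p under 0.01 and 1 to 2 without 1 library. The median fitted value of the Taar7 genes, -0.94, replaced -1.28 for their summed level, in which genes with more counts weigh more. Taar7b was 0.075 with marker scaling, which moved the median of all tested genes from 0.016 to 0.684. Of 90 member values under alternatives, 85 kept direction and side of the threshold, 3 of Taar7d lost the call, 1 of Taar7f gained it and 1 of Taar7b turned. Same-numbered libraries did not deviate together (correlations -0.33, 0.06 and -0.18). With 3 libraries per group this cannot settle whether the numbers pair them, and the labels do not say. With the replicate block 377 genes and the same count of 2 members were called. Counts of 2 to 14 limit Taar8a and Taar8c.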
